A study of Solanum lycopersicum with 40 samples.

Results

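The first leaves and the root tips of control tomato seedlings were set against each other on the 10038 non-control probe sets of an Affymetrix tomato array. The comparison took 12 of the 40 arrays in the series: 6 of leaves and 6 of root tips, chosen by their titles as vector control or wild type. Leaf arrays held 3 vector control and 3 wild type samples of the first pair of leaves of 10-day seedlings, and root tip arrays held 3 vector control and 3 wild type samples of root apices of 10-day seedlings. Seeds were germinated on MS agar and given no treatment, and the root tip labels name the dwarf cultivar Micro-Tom, while the leaf labels name no cultivar. Vector control seedlings, as their name says, carry a transformation vector without the InsP 5-ptase transgene, whose product dephosphorylates inositol trisphosphate, a calcium-releasing messenger, and wild type seedlings were not transformed. The labels give no promoter and do not say whether the vector control is 1 line or several. The other arrays, of ripe fruit and of transgenic lines N6 and N7, were left out of the main comparison.

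The labels describe the leaves as grown in light and the root tips as etiolated and taken in darkness, while the growth text printed for roots repeats that for leaves. Organ and light therefore cannot be told apart. The labels do not say that replicates came from separate plants, plates or extractions, so the p-values reflect sample-to-sample spread alone, and that spread may be technical. The source label names wild type root apices for every root tip sample, and the genotype was taken from the sample titles.

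Leaves of a young seedling build chloroplasts, in which photosystems and their chlorophyll-binding antennae capture light and carotenoids protect them. Root tips divide, elongate and take up ions through transporters in the outer cell layers, and they live on sucrose imported from the shoot. In bulk tissue, fewer cells of a type and less RNA per cell cannot be told apart.

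Signals are the deposited intensities, scaled by the authors so that the trimmed mean of every array was 500.1 or close to it. Signals at or under 50 were set to that floor before log2 was taken, and a difference is given as leaf minus root tip on that log2 scale with its standard error (SE) from limma, a linear model fitted across all probe sets. A fold is the ratio of geometric means of the floored signals, and is written as "at least" where 1 organ lay at or under the floor on at least 1 array, and such differences have no order among themselves. A probe set was called at a Benjamini-Hochberg adjusted p under 0.05. Signals of a gene are given as the lowest, the median and the highest over the 6 arrays of an organ, and different genes' signals are not compared.

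Arrays of a group correlated at 0.96 to 0.992 over the tested probe sets, and vector control with wild type arrays of an organ at 0.96 to 0.993. Leaf with root tip arrays correlated at 0.52 to 0.66. The 8 green leaf markers summed to between 51972 and 95892 on the leaf arrays, against 195.1 to 434.6 on the root tip arrays, where 6 of the 8 never passed the floor. The 11 root markers summed to between 5431 and 6774 in leaf, against 18767 to 23490 in root tips. Of them 7 were lower, 1 higher and 3 not passed, where 48.6% of all tested probe sets were lower and 28.2% higher. All green leaf markers are also in the photosystem list below, and all root markers but TPX2 and TPx1 in the nutrient uptake list. Those lists are therefore not separate results. Sums of dividing-cell markers overlapped between the organs, at 3856 to 7712 in leaf, against 6039 to 6883 in root tips. Ripe fruit markers had sums of 389 to 530 in leaf, against 1436 to 1980 in root tips. All 6 that were tested were called lower in leaf, 4 of them at 2-fold. Psy1 is among these, and its second probe set was called in the opposite direction. ACS4, RIN, NOR and PG2 did not reach the tested range.

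The ratio of 3′ to 5′ signal on the control probe sets, a measure of RNA integrity and labelling, differed between the organs. Its log2 mean over actin, GAPDH, EF-1 alpha and ubiquitin was 4.43 ± 0.17 in leaf and 2.85 ± 0.29 in root tips (SD, n = 6 each; 2-sided exact permutation p = 0.0022, the smallest this design allows; 0.0032 after adjustment over 6 measures). For ubiquitin alone the test found no difference, at 2.53 ± 0.15 in leaf and 2.68 ± 0.66 in root tips (exact permutation p = 0.84, n = 6). Root tip vector control 3 and wild type 3 had the highest root tip means, 3.15 and 3.28, and on that mean stood nearest to leaf. On wild type 3 the actin, GAPDH and ubiquitin ratios (3.44, 1.26 and 3.99) were the highest of the root tip arrays. Its EF-1 alpha ratio, 4.43, was the lowest of them. The ratio shared 0.929 of its variance with organ, and with it as a covariate 1819 probe sets were called. Its part in the results for each gene group was not tested beyond that fit, whose counts are given with the groups as the ratio covariate.

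**Figure D1:**
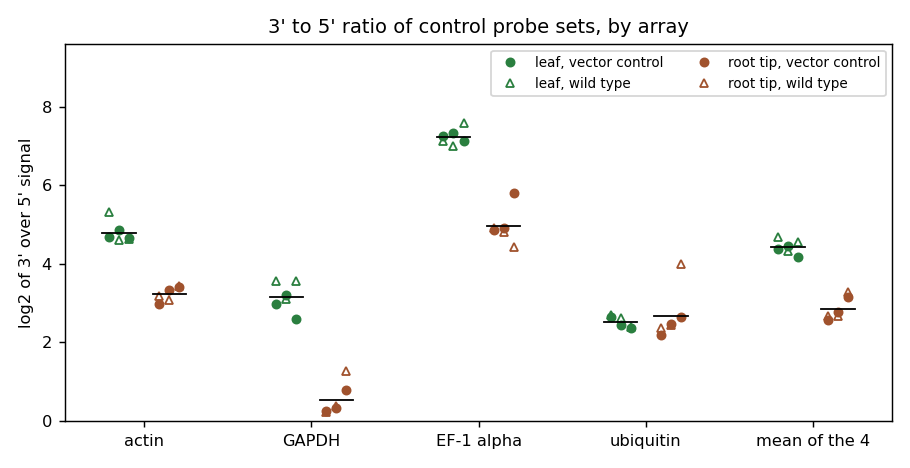
Log2 of the 3′ over the 5′ signal (y axis) for 4 control genes and their mean, with each array as a point, leaf left of root tip, filled circles for vector control, open triangles for wild type and bars for the organ mean. Leaf arrays sit above root tip arrays for actin, GAPDH and EF-1 alpha, with a mean over the 4 genes of 4.43 in leaf and 2.85 in root tips, while the ubiquitin values overlap.

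Of 7086 probe sets tested, 5443 differed between leaf and root tip, which is 76.8% of those tested. Of these, 2000 were higher in leaf (28.2%) and 3443 lower (48.6%). At 2-fold or more, 1246 were higher (17.6%) and 1783 lower (25.2%). The lists below are set beside the 28.2% higher and 48.6% lower of all tested probe sets, and beside their median difference of -0.30. Scaling each array to its median moved that to -0.05 and the share of higher calls to 49.1%, against 36.7% as deposited. All 6 leaf arrays lay above all 6 root tip arrays for 1561 probe sets (22% of those tested), and the reverse held for 2438 (34.4%). Among all 10038 probe sets, 495 passed the floor on every leaf array and on no root tip array, and 309 did so on every root tip array and no leaf array. Without root tip vector control 3 and wild type 3, 5523 probe sets were called. Only 909 probe sets carry a single gene symbol. The 681 such genes tested had 231 higher in leaf, 325 lower and 125 not passed.

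Photosynthesis genes had the highest median difference among the lists with at least 3 tested genes. All 9 measured genes of the photosystems and light harvesting were higher in leaf, with a median difference of 7.24 and a range from 6.42 to 7.83, set against 28.2% of all probe sets higher and the median of -0.30. All 9 were also called with the 3′ to 5′ ratio as a covariate. PSBO, a subunit that holds the water-splitting manganese cluster of photosystem II, had signals of 8575, 11376 and 15799 in leaf arrays, against 26.2, 32.8 and 47.2 in root tip arrays. No root tip array passed the floor, and PSBO was at least 228-fold higher in leaf, with a difference of 7.83 ± 0.13 (SE; adjusted p = 2.2e-14). PSBP and PsbQ, the other extrinsic proteins of that complex, had leaf signals of 5177, 7505 and 9234 and of 6808, 9343 and 12509, against root tip signals of 8.13, 10.2 and 17 and of 0.843, 7.22 and 14.4. They were at least 146-fold and at least 185-fold higher in leaf.

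The chlorophyll a/b-binding antenna genes CAB4, CAB5 and CAB6A followed the same division. CAB6A had 7414, 9428 and 12286 in leaf arrays, against 10.2, 15.1 and 25.9 in root tip arrays, and CAB5 had 6601, 9537 and 12922 in leaf arrays, against 0.483, 1.35 and 8.24 in root tip arrays, so that neither passed the floor in root tips. CAB4 passed it on some root tip arrays, with 6926, 9500.0 and 12995 in leaf arrays, against 38.8, 62.4 and 87.5 in root tip arrays. The folds were at least 189-fold, at least 187-fold and at least 151-fold in that order. These genes belong to a family of near-identical copies, and a probe set may also bind transcripts of the others. PETE (plastocyanin, the copper protein that carries electrons to photosystem I) had a difference of 7.24 ± 0.13 (SE; adjusted p = 2.2e-14), and psaD, a photosystem I subunit that docks ferredoxin, one of 6.68 ± 0.17 (SE; adjusted p = 6.5e-13).

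PSBR, a small photosystem II protein, was above the floor on every array of both organs, so its fold is not a bound. Its signals were 10494, 11383 and 8366 in vector control and 9668, 7592 and 13837 in wild type in leaves, against 66.6, 146 and 251 in vector control and 59.1, 83.9 and 215 in wild type in root tips. The arrays numbered 3 had the highest root tip values in both genotypes, yet the organs lay far apart, with PSBR 85.5-fold higher in leaf (6.42 ± 0.34, SE; adjusted p = 1.1e-09). TLRP, a tyrosine- and lysine-rich cell wall protein, had leaf signals of 8030.3, 9509.8 and 12954, against root tip signals of 49.8, 13.4 and 438 in vector control and 37.6, 25.7 and 137 in wild type, and the arrays numbered 3 were again the highest of their root tip genotype. TLRP was higher in leaf by 6.84 ± 0.47 (SE; adjusted p = 1.8e-08), and by 1.74, not called, with the 3′ to 5′ ratio as a covariate (adjusted p = 0.28). The part of leaf RNA in those samples was not tested. The green leaf markers, PSBR included, summed to 434.6 on vector control 3 and 366.5 on wild type 3. On the other root tip arrays they summed to 195.1 to 281.5. PSBO was 47.2 on vector control 3, its highest root tip value, and 29.1 on wild type 3, both under the floor.

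Genes outside the photosystems reached similar differences. POR2 had 4755, 6504 and 8612 in leaf arrays, against 32, 46.5 and 53.9 in root tip arrays, a difference of 7.0 ± 0.13 (SE; adjusted p = 3.6e-14). For ca2 the signals were 2588, 5928 and 6495 in leaf arrays, against 0.441, 0.765 and 5.44 in root tip arrays, and this brightest probe set gave 6.70 while the lowest of its 3 tested probe sets gave 1.30. The gene mdh, named for malate dehydrogenase, had 3444, 3778 and 4948 in leaf arrays, against 13.9, 21.9 and 38.1 in root tip arrays (at least 79.6-fold higher). Leaf and root tip arrays did not overlap for any of these genes. GSA-AT, which makes the tetrapyrrole precursor 5-aminolevulinate, was measured in both organs, with 2555, 4055 and 4752 in leaf arrays, against 537, 598 and 965 in root tip arrays, and differed by 2.57 ± 0.15 (SE; adjusted p = 2.6e-09).

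**Figure D2:**
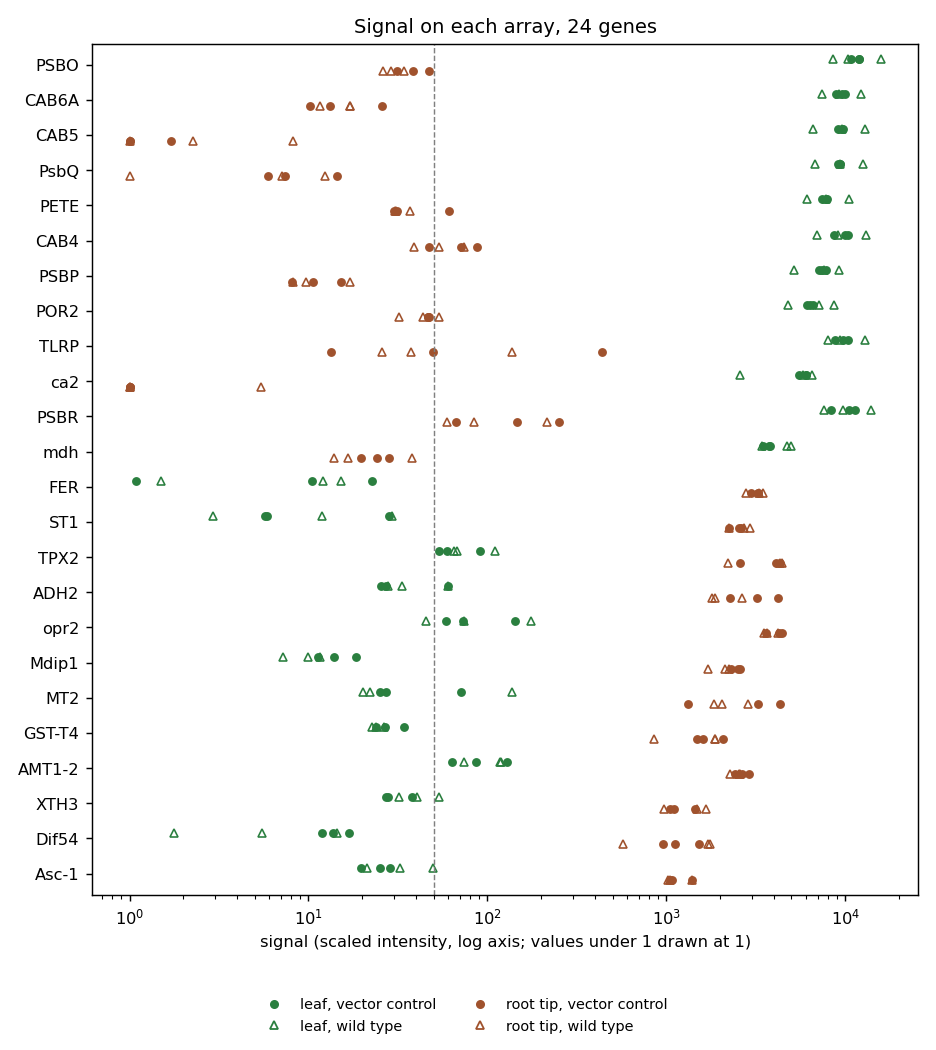
Signal on each of the 12 arrays (x axis, scaled intensity on a log scale, floor of 50 dashed) for 24 genes, the top and bottom 12 by difference, leaf in green above root tip in brown in each row, filled circles for vector control and open triangles for wild type. Leaf and root tip arrays do not overlap in any row; TLRP and PSBR reach 438 and 251 on root tip vector control 3.

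Carotenoid and isoprenoid genes were higher in leaf in 15 of 17 cases and lower in 2, with a median difference of 1.95. Of all tested probe sets 28.2% were higher and 48.6% lower. Without root tip arrays 3 the counts were the same, and with the ratio covariate 8 were called higher and 2 lower. The plastid isoprenoid entry enzyme DXS had 1635, 2251 and 2716 in leaf arrays, against 115, 145 and 204 in root tip arrays, and was 14.3-fold higher. DXR and HDS, later steps of that route, differed by 1.47 and 1.95. PSY2, a phytoene synthase, had 626, 1078 and 2006 in leaf arrays, against 33.3, 57.5 and 86.3 in root tip arrays (4.16 ± 0.26, SE; adjusted p = 5.7e-09). PDS and ZDS, the desaturases that follow it, differed by 2.77 and 2.22.

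Cyclases of both branches past lycopene were higher in leaf. CRTL-E-1, the lycopene epsilon cyclase of the lutein branch, had 678, 1073 and 1220.1 in leaf arrays, against 3.80, 7.58 and 12.4 in root tip arrays, and was at least 19.7-fold higher. LCY1, a lycopene beta cyclase, had 1366, 1715 and 2281 in leaf arrays, against 345, 368 and 415 in root tip arrays (2.24 ± 0.12, SE; adjusted p = 2e-09). The xanthophyll cycle pair ZEP and VDE, which make and remove epoxide groups as light changes, differed by 3.52 ± 0.18 (SE; adjusted p = 7.4e-10) and 2.52 ± 0.16 (SE; adjusted p = 6.5e-09). VDE did not pass the floor on any root tip array, with 178, 276 and 441 in leaf arrays, against 0.608, 1.83 and 4.60 in root tip arrays. NSY, named for neoxanthin synthase, and Psy1, the fruit phytoene synthase, were the lower ones. NSY had 15.4, 23.2 and 40.9 in leaf arrays, against 96.6, 135 and 181 in root tip arrays (-1.44 ± 0.14, SE; adjusted p = 7.3e-07). The brightest Psy1 probe set had 71.6, 142 and 207 in leaf arrays, against 212, 241 and 440.2 in root tip arrays (-1.01 ± 0.22, SE; adjusted p = 0.001), but its second probe set was called in the opposite direction at 1.39, so no direction is read for Psy1.

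Cryptochromes were higher in leaf, while other light signalling genes were mixed. Among all tested probe sets 28.2% were higher and 48.6% lower. Of 12 genes of light reception and signalling, 7 were higher in leaf, 4 lower and 1 did not pass (median 0.50; 4 higher and 0 lower with the ratio covariate). The cryptochromes, blue-light receptors, were all higher: CRY1A had 1437, 2055 and 2399 in leaf arrays, against 153, 161 and 192 in root tip arrays, a 12-fold difference. Cry1b had 368, 505 and 643 in leaf arrays, against 5.66, 10.1 and 15.8 in root tip arrays, and CRY2 had 279, 342 and 428 in leaf arrays, against 72.5, 80 and 96.5 in root tip arrays. Cry1b did not pass the floor on any root tip array, and the CRY2 arrays did not overlap between organs. Their differences were 3.30 ± 0.16 (SE; adjusted p = 3.4e-10) and 2.06 ± 0.14 (SE; adjusted p = 1.3e-08). PHYA, the far-red receptor that is unstable in light, was slightly lower, with 1166, 1491 and 1822 in leaf arrays, against 1761, 1882 and 2119.9 in root tip arrays (-0.37 ± 0.11, SE; adjusted p = 0.0095), and its arrays overlapped. HY5, a transcription factor of light responses, did not pass, at -0.78 (adjusted p = 0.057), but lay near the threshold: it was called lower without root tip arrays 3 (-1.16; adjusted p = 0.012), without leaf wild type 2 (-0.99; adjusted p = 0.021) and with array weights (-1.18; adjusted p = 0.0005). COP1 and DET1, repressors of light responses, differed by 0.50 and 1.04. PHYA and DDB1 were called lower by 0.37 each, close to the median of all probe sets, and with median scaling 2 of the list were called lower.

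Antioxidant enzyme genes were found on both sides: 7 of 15 were higher, 5 lower and 3 not passed (median 0.46; 0.12 with a floor of 100; 3 higher and 3 lower with the ratio covariate). Over all tested probe sets 28.2% were higher and 48.6% lower, with a median of -0.30. Catalase gene cat1 had 5985, 7528 and 9176 in leaf arrays, against 61.5, 131 and 235 in root tip arrays. Every leaf array was above every root tip array, with a 56.7-fold difference. APX, an ascorbate peroxidase, had 468, 1102 and 1488 in leaf arrays, against 28.7, 38.8 and 85 in root tip arrays (4.20 ± 0.26, SE; adjusted p = 6.4e-09). DHAR2, which regenerates ascorbate, differed by 3.15 ± 0.17 (SE; adjusted p = 1.2e-09), and the plastid superoxide dismutase SODCP.2 by 2.13 ± 0.13 (SE; adjusted p = 5.5e-09). In the other direction, the glutathione S-transferase GST-T4 had 22.6, 25 and 34.1 in leaf arrays, against 853, 1734 and 2071 in root tip arrays, and ctu1 had 149, 317 and 536 in leaf arrays, against 3269.8, 3795 and 4098 in root tip arrays. GST-T4 stayed under the floor on all leaf arrays (at least 31.3-fold lower), and ctu1 differed by -3.63 ± 0.21 (SE; adjusted p = 2.7e-09). GPXle-1, a glutathione peroxidase, was lower by 1.57, while SODCC.1 and GPXle-2 did not pass, at -0.17 and -0.16. SODCC.1 was called at -0.69 with quantile normalization (adjusted p = 7.2e-08) and stood at 0.14, not called, with median scaling, and GPXle-2 was called at -0.34 without root tip arrays 3 (adjusted p = 0.0064).

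Nutrient uptake genes were mostly lower in leaf, that is, higher in root tips. Of 18 tested, 11 were lower, 4 higher and 3 not passed, with a median of -1.13, against 48.6% of all probe sets lower and the median of -0.30. With the ratio covariate 8 were called lower and 1 higher. FER, the bHLH transcription factor that switches on iron uptake, had 1.09, 11.3 and 22.7 in leaf arrays, against 2768, 3252 and 3466 in root tip arrays. No leaf array passed the floor, and FER was at least 63.2-fold lower in leaf (-5.98 ± 0.11, SE; adjusted p = 2.2e-14). The sulfate transporter ST1 had 2.92, 8.86 and 29.3 in leaf arrays, against 2237, 2571 and 2949 in root tip arrays, again under the floor on every leaf array (-5.67 ± 0.11, SE; adjusted p = 5.7e-14). AMT1-2, an ammonium transporter, was measured above the floor on all 12 arrays, with 63.6, 102 and 129 in leaf arrays, against 2256, 2550.3 and 2887 in root tip arrays, and a 26.8-fold difference.

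The phosphate transporter PT1 had 481, 592 and 855 in leaf arrays, against 4024, 4484 and 5574 in root tip arrays (-2.89 ± 0.12, SE; adjusted p = 7.1e-11). Its relative PT2 varied among root tip arrays, with 35.2, 673 and 85.6 in vector control and 104, 37.2 and 15.8 in wild type, and did not pass (adjusted p = 0.093). The potassium channel LKT1 had 41.9, 47.7 and 71.4 in leaf arrays, against 282, 342 and 429.7 in root tip arrays (-2.63 ± 0.15, SE; adjusted p = 2.5e-09), and the metal transporters NRAMP1 and NRAMP3 were lower by 1.89 and 1.04. Both sucrose transporters of the list, SUT2 and SUT4, were lower by 1.23 and 1.25. The 4 higher genes were ST2 by 1.24, TPSI1 by 1.24, the proton pump LHA2 by 0.43, and the ferric reductase FRO1, a root marker, by 0.35. ST2 and FRO1 were under the floor on every root tip array, and with a floor of 100 ST2 was no longer called (0.25; adjusted p = 0.076). FRO1 had 34.5, 69.2 and 77.7 in leaf arrays, against 0.991, 5.94 and 18.7 in root tip arrays and passed the floor on leaf arrays only.

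Further genes with the lowest values included TPX2, a peroxidase, with 53.5, 66.4 and 110.0 in leaf arrays, against 2211, 4202 and 4445 in root tip arrays. It was above the floor on every array and 49-fold lower in leaf (-5.62 ± 0.23, SE; adjusted p = 6.8e-11). ADH2, an alcohol dehydrogenase of fermentation, had 25.5, 30.6 and 60.3 in leaf arrays, against 1795, 2459.6 and 4217 in root tip arrays (-5.58 ± 0.17, SE; adjusted p = 2.9e-12). Mdip1, MT2 and Asc-1 had leaf signals of at most 18.5, 138 and 49.4, against root tip signals of at least 1703, 1314 and 1019. Asc-1 is the tomato gene for insensitivity to a toxin of Alternaria. Their differences were -5.47, -5.26 and -4.52.

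Nitrogen genes were found on both sides, with counts near the 28.2% higher and 48.6% lower of all tested probe sets. Of 11, 4 were higher, 5 lower and 2 not passed (median -0.01; -0.59 with quantile normalization and 0.31 with median scaling, so no direction is read for the list; 0 higher and 3 lower with the ratio covariate). GS2, the plastid glutamine synthetase, had 6085, 8769.8 and 10967 in leaf arrays, against 3229, 3811 and 4384 in root tip arrays (1.15 ± 0.12, SE; adjusted p = 1.8e-06), while gts1, a cytosolic glutamine synthetase, had 1088, 1436 and 1830.3 in leaf arrays, against 4824, 5882 and 7055 in root tip arrays (-2.02 ± 0.13, SE; adjusted p = 1e-08). The organs did not overlap for either. Glutamate dehydrogenase gene gdh1 had 387, 402 and 582 in leaf arrays, against 4667, 5059 and 5751 in root tip arrays, and was 11.9-fold lower in leaf. ODC and adc1, decarboxylases that start polyamine synthesis, were lower by 1.43 and 1.36, and gad2 (glutamate decarboxylase) depended on the scaling: it did not pass at -0.01, was called at -0.59 with quantile normalization (adjusted p = 0.0002) and stood at 0.31, not called, with median scaling.

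Sugar genes were found on both sides. Of 17 tested, 5 were higher, 10 lower and 2 not passed (median -0.75), counts close to the 28.2% higher and 48.6% lower of all probe sets. With median scaling 5 were higher and 8 lower (median -0.43), and with the ratio covariate 4 and 8. The sucrose synthase gene sus3, which splits sucrose in sink tissues, had 464, 569 and 655 in leaf arrays, against 3961, 5250.0 and 5973 in root tip arrays (-3.20 ± 0.11, SE; adjusted p = 1.3e-11). A second sucrose synthase, SUS1, did not pass the floor on any leaf array and was lower by 1.67. The fructokinases FRK1 and FRK2 had leaf signals of 41.5, 54.5 and 70.7 and of 554, 653 and 769.7, against root tip signals of 592, 656 and 790.5 and of 3264, 3385 and 4164. They differed by -3.58 ± 0.14 (SE; adjusted p = 3.7e-11) and -2.41 ± 0.10 (SE; adjusted p = 7e-11), while FRK3 was higher in leaf by 1.37. The cell wall invertase Wiv-1 had 282, 326 and 444 in leaf arrays, against 2034, 2176 and 2566 in root tip arrays (-2.69 ± 0.12, SE; adjusted p = 2.4e-10), and the hexose transporter HT1 and hexokinase hxk1 were lower by 1.84 and 1.24. Among the higher genes, AGPL3, a large subunit of ADP-glucose pyrophosphorylase for starch, had 967, 1575 and 1681 in leaf arrays, against 0.777, 8.72 and 15.1 in root tip arrays, and was at least 28.6-fold higher. The vacuolar acid invertase AI had 642, 939.5 and 1264 in leaf arrays, against 83.5, 131 and 174 in root tip arrays (2.83 ± 0.20, SE; adjusted p = 2e-08), and sucrose-phosphate synthase (SPS) differed by 1.28. The invertase inhibitor CIF1 ranged over 113 to 784 in root tips and did not pass (-0.01).

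Ethylene genes were lower in leaf in 25 of 38 cases, higher in 6 and not passed in 7, with a median of -0.62. Of all tested probe sets 48.6% were lower and 28.2% higher, with a median of -0.30. Without root tip arrays 3 the counts were 21 lower and 4 higher, with median scaling 20 and 7, with a floor of 100 they were 18 and 6, and with the ratio covariate 14 and 3. The list median under these settings was -0.57, -0.40, -0.37 and -1.50 in that order. The covariate shares 0.929 of its variance with organ, so nothing is read from the median under it. Ethylene is made from S-adenosylmethionine by ACC synthase and ACC oxidase, is sensed by ETR receptors that signal through CTR kinases and EIN2, and acts through EIL and ERF factors. Of the synthesis genes, ACS1A had 30.7, 63.9 and 156 in leaf arrays, against 991, 1218 and 1506 in root tip arrays (-4.04 ± 0.25, SE; adjusted p = 5.3e-09), and the ACC oxidase ACO5 had 4.41, 12.4 and 16.1 in leaf arrays, against 516, 642 and 2335 in root tip arrays (-3.99 ± 0.23, SE; adjusted p = 2.4e-09). Neither gene's organs overlapped. ACO5 reached its highest value on root tip vector control 3. ACO6, by contrast, had 3691, 4346 and 6529.7 in leaf arrays, against 659.5, 1109 and 2352 in root tip arrays, and was 3.77-fold higher in leaf, and ACO4 was higher by 0.47.

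The receptors did not share a direction. ETR4 had 71, 79.4 and 124 in leaf arrays, against 678, 869 and 1352 in root tip arrays, a 10.1-fold difference (-3.33 ± 0.21, SE; adjusted p = 7.5e-09). ETR5 and ETR3 were lower by 2.02 and 1.37, and ETR1 by 0.65. ETR2 was higher in leaf, with 471, 541 and 681 in leaf arrays, against 160.4, 178 and 201 in root tip arrays (1.62 ± 0.12, SE; adjusted p = 3.9e-08), and ETR6 did not pass. The CTR kinase genes CTR1, CTR3 and CTR4 were lower by 1.67, 1.00 and 0.54. EIN2 and EIL2 were lower by 0.34 and 0.40, near the median of all probe sets, EIL1 and EIL3 did not pass, and EIL4 was higher, with 287, 377 and 399 in leaf arrays, against 47.1, 62.2 and 73.6 in root tip arrays (2.53 ± 0.15, SE; adjusted p = 3e-09). The ethylene-responsive transcript ER1 had 73.4, 165 and 448 in leaf arrays, against 1295, 1755 and 1915 in root tip arrays (-3.17 ± 0.35, SE; adjusted p = 2.1e-06).

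**Figure D3:**
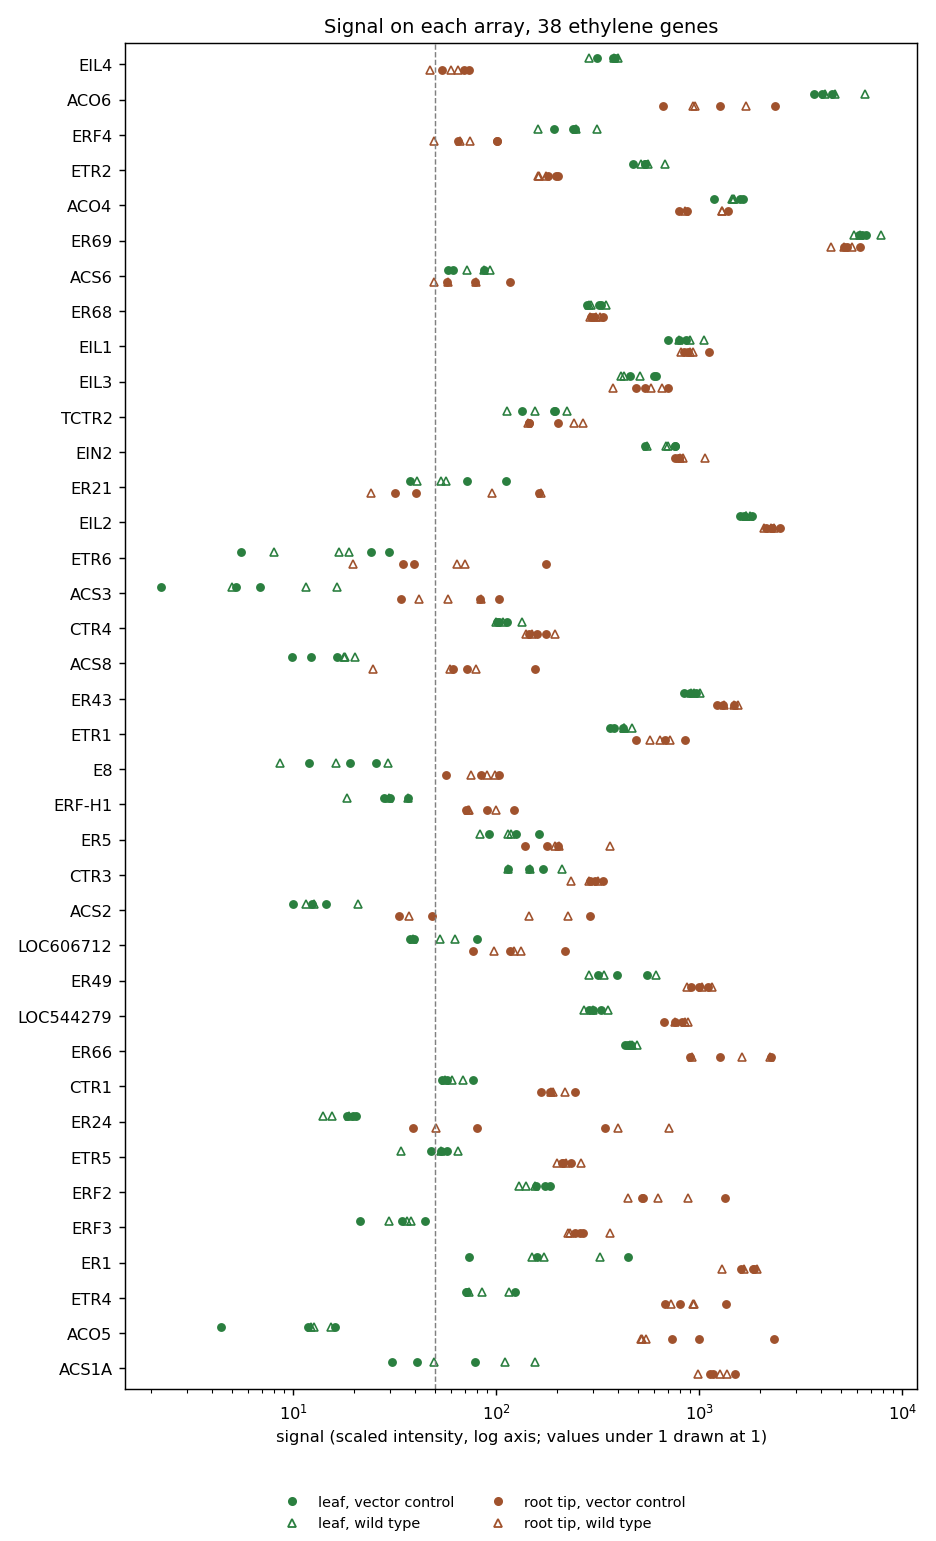
Signal on each array (x axis, scaled intensity on a log scale, floor of 50 dashed) for the 38 tested ethylene genes, ordered from the highest difference (EIL4, 2.53) to the lowest (ACS1A, -4.04), leaf in green above root tip in brown in each row, filled circles for vector control and open triangles for wild type. Rows toward the bottom show root tip arrays to the right of leaf arrays, with wide root tip spreads for ER24 and ACS2.

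Some ethylene and defence genes varied more among root tip arrays than among leaf arrays. ER24 had 14, 18.6 and 20.5 over the leaf arrays, against 80.5, 38.9 and 342 in vector control and 396, 50.7 and 709 in wild type in root tips. PTI5, a factor of the ERF family, had at most 10.4 in leaves, against 237, 208 and 1054 in vector control and 618, 151 and 871 in wild type in root tips. For both genes vector control 3, wild type 1 and wild type 3 were the 3 highest root tip arrays. ER24 was called lower in leaf at -1.72 ± 0.57 (SE; adjusted p = 0.015), with overlapping floored values. PTI5 was called at -3.01 ± 0.44 (SE; adjusted p = 3.3e-05), with no overlap.

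Of 13 ERF and DREB transcription factors, which bind promoters of hormone and stress genes, 11 were lower in leaf and 2 higher (median -1.12). Of all tested probe sets 48.6% were lower and 28.2% higher. With the ratio covariate 7 of the list were called lower and 0 higher. ERF-H1, ERF2, ERF3, ERF4 and erf1a are also among the ethylene genes above, so the results of these lists are not separate. DREB3 had 40.6, 54.3 and 62.7 in leaf arrays, against 247, 362 and 396 in root tip arrays (-2.65 ± 0.14, SE; adjusted p = 1.1e-09), and ERF3 had 21.3, 35.3 and 44.4 in leaf arrays, against 226, 250.3 and 365 in root tip arrays (-2.39 ± 0.14, SE; adjusted p = 2.9e-09). JERF3, measured well above the floor in both organs, had 329, 380.0 and 467 in leaf arrays, against 1222, 1326 and 1359 in root tip arrays (-1.75 ± 0.11, SE; adjusted p = 5.7e-09). The organs of all 3 were apart. ERF4 and DREB1 were higher, by 1.62 and 1.07, and DREB1 was not called with a floor of 100 (0.15; adjusted p = 0.068).

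Pathogenesis-related genes, which encode antifungal proteins such as chitinases, glucanases and osmotins, were lower in leaf in 6 of 8 cases, higher in 1 and not passed in 1 (median -1.99). Of all tested probe sets 48.6% were lower and 28.2% higher. With the ratio covariate none was called lower and 1 was called higher. NP24-I, an osmotin-like protein, had 192, 426 and 710.3 in leaf arrays, against 3846, 4234 and 4729 in root tip arrays (-3.41 ± 0.29, SE; adjusted p = 1.5e-07). GluB, a basic glucanase, had 164, 536 and 1873 in vector control and 336, 836 and 867 in wild type in leaves, against 4112, 5424 and 4365 in vector control and 4399, 4436 and 3459.5 in wild type in root tips (-2.89 ± 0.45, SE; adjusted p = 5.7e-05). Its highest leaf array, vector control 3, was below every root tip array. PR5 and the chitinase CHI9 were lower by 2.12 and 2.08, and the chitinase CHI17 was higher, with 363, 651 and 1208 in leaf arrays, against 79.5, 111 and 138 in root tip arrays (2.64 ± 0.23, SE; adjusted p = 2.5e-07).

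Wall-loosening genes separated into members of both organs. Of 23 expansin and xyloglucan genes, 13 were higher in leaf, 9 lower and 1 not passed (median 0.77), against 28.2% of all tested probe sets higher and 48.6% lower. With the ratio covariate 6 were higher and 4 lower, and with a floor of 100 they were 9 and 7, with a median of 0.04. Expansins loosen bonds between wall polymers, and XTH enzymes cut and rejoin xyloglucan. EXP5 had 814, 946 and 1408 in leaf arrays, against 20.4, 44.5 and 73.8 in root tip arrays (4.18 ± 0.16, SE; adjusted p = 5.4e-11), EXP12 differed by 2.44 and exp18 by 1.93. In the root tip direction XTH3 had 27.1, 35 and 53.3 in leaf arrays, against 975, 1271 and 1659.9 in root tip arrays (-4.64 ± 0.15, SE; adjusted p = 8.4e-12), and XTH6 had 6.70, 28.8 and 35.4 in leaf arrays, against 513, 755 and 864 in root tip arrays (-3.80 ± 0.16, SE; adjusted p = 1.1e-10). EXPA8 had 12, 24.7 and 46.8 in leaf arrays, against 115, 546 and 859.8 in root tip arrays (-3.13 ± 0.36, SE; adjusted p = 3.3e-06). Xegip, an inhibitor of xyloglucan-degrading enzymes, had 203, 345 and 405 in leaf arrays, against 3602, 4073 and 4282 in root tip arrays, and was 12.6-fold lower in leaf. XTH and expansin genes have close relatives, and cross-binding between members was not tested.

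Of 13 tested pectin and wall glycan hydrolases, 9 were higher in leaf, 3 lower and 1 not passed (median 0.79), against 28.2% of all tested probe sets higher and 48.6% lower. The counts higher and lower were 7 and 4 without root tip arrays 3, and 3 and 0 with the ratio covariate. The endoglucanases cel5 and Cel2 were higher by 2.92 and 2.41, and the galactosidase TBG7 by 2.55. The galactosidase TBG4, associated with fruit, was lower by 1.39, and cel7 by 2.46. A further 10 measured members of that list did not reach the tested range. Among 4 extensin, proline-rich and arabinogalactan genes, Dif54, ext1 and TPRP-F1 were lower and AGP-1 was higher by 0.42, a direction that turned to -0.21 with quantile normalization; with the ratio covariate 1 of the 4 was called lower. Dif54 had 1.78, 12.8 and 16.8 in leaf arrays, against 571, 1321 and 1762 in root tip arrays (-4.57 ± 0.25, SE; adjusted p = 1.7e-09), and ext1, an extensin, had 4.26, 12.5 and 14.3 in leaf arrays, against a lowest of 156 and a highest of 638 in root tip arrays (-3.02 ± 0.26, SE; adjusted p = 2.2e-07).

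Jasmonate and wound genes were also found on both sides. Of 13, 5 were higher, 6 lower and 2 not passed. Their median was 0.08, which was -0.17 without root tip arrays 3 and 0.40 with median scaling. With the ratio covariate 1 was called higher and 3 lower. The shares among all tested probe sets were 28.2% higher and 48.6% lower. ARG2 and TD2, both higher, are also in the nitrogen list. LAPA1 and TD2, among the higher genes, had most of their leaf signal in vector control leaves, as given below. The oxophytodienoate reductase gene opr2 had 45.6, 73.1 and 175 in leaf arrays, against 3506, 3914 and 4429.8 in root tip arrays (-5.52 ± 0.28, SE; adjusted p = 7.3e-10), and the lipoxygenase LOX1.1 had 24, 32.6 and 128 in leaf arrays, against 339.8, 668 and 958 in root tip arrays (-3.33 ± 0.30, SE; adjusted p = 3.3e-07). OPR3, the reductase of jasmonate synthesis, and AOC, the cyclase before it, did not pass, at 0.08 and 0.12, although OPR3 was called at 0.40 with median scaling (adjusted p = 0.0092). HPL, which makes leaf aldehydes, was higher, with 1135, 1476 and 2405 in leaf arrays, against 239, 458 and 511 in root tip arrays (1.93 ± 0.22, SE; adjusted p = 2.8e-06). The brightest of 3 tested probe sets for polyphenol oxidase (ppo) had 0.519, 2.48 and 12.2 in leaf arrays, against 1807, 2991 and 3486 in root tip arrays (-5.79 ± 0.15, SE, adjusted p = 8.8e-13). The closest to 0 gave -0.21 and did not pass. All 3 were negative, but the size of the gene's difference is uncertain.

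Kinases and phospholipases of signalling were lower in leaf in 9 of 12 cases, higher in 2 and not passed in 1 (median -0.97). Of all tested probe sets 48.6% were lower and 28.2% higher. With the ratio covariate 2 of the list were called lower and 2 higher. Phospholipase D gene PLDa3 had 1156, 1548 and 1841 in leaf arrays, against 35.9, 41.1 and 65 in root tip arrays, and was at least 28.9-fold higher, whereas PLDb1 had 53.4, 82.5 and 129 in leaf arrays, against 419, 738 and 1158 in root tip arrays (-3.04 ± 0.27, SE; adjusted p = 2.4e-07). PLDa1 and the kinase MPK3 were lower by 1.48 and 1.83, and MAPK10 was higher by 1.12.

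Cell cycle genes were found on both sides, beside 28.2% of all tested probe sets higher and 48.6% lower. Of 13, 4 were higher, 5 lower and 4 not passed, with a median of -0.31 beside -0.30 for all probe sets (0.38 with the ratio covariate, where 1 was called higher and 0 lower). CycA2 had 416, 497 and 652 in leaf arrays, against 154, 178 and 234 in root tip arrays (1.47 ± 0.15, SE; adjusted p = 9.9e-07). CYCD3, a cyclin of entry into the cycle, had 207, 445 and 793 in leaf arrays, against 853, 972 and 1072 in root tip arrays (-1.11 ± 0.25, SE; adjusted p = 0.0011), and histone H1 was lower by 0.63. PCNA and CDKB2 did not pass, at -0.47 and -0.30, and their leaf arrays spread widely, from 278.5 to 1804 for PCNA. Without leaf wild type 2 both were called lower, PCNA at -0.82 (adjusted p = 0.0043) and CDKB2 at -0.58 (adjusted p = 0.0017).

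Smaller groups gave single cases, and their counts stand beside 28.2% of all tested probe sets higher and 48.6% lower. Of 6 dehydration and abscisic acid genes, 3 were higher, 2 lower and 1 not passed. The lipid transfer proteins TSW12 and ltpg1 had leaf signals of 2761, 3648 and 3948 and of 2863, 3393 and 3877, against root tip signals of 39, 71.2 and 124 and of 68.5, 183 and 416. Their differences were 5.54 ± 0.16 (SE; adjusted p = 2e-12) and 4.25 ± 0.39 (SE; adjusted p = 3.8e-07). LEA14 was lower (-2.67 ± 0.12, SE; adjusted p = 1.4e-10). The dehydrin TAS14 reached 2910.4 on 1 leaf array while its leaf median was 51, and it did not pass, though it was called without leaf vector control 2 (1.69; adjusted p = 0.016). Of 6 auxin genes, ARF3 (2.97 ± 0.20, SE; adjusted p = 1.2e-08) and IAA17 were higher, IAA16 lower (not called with median scaling, at -0.45; adjusted p = 0.064) and 3 not passed. The gibberellin 3-oxidase 3OH-2 had 245, 352 and 427 in leaf arrays, against 8.87, 16.8 and 27.7 in root tip arrays (2.76 ± 0.14, SE; adjusted p = 8.8e-10), and GA20OX1, the enzyme before it, was higher by 1.31. Of 6 homeobox and meristem genes, 4 were higher, 1 (TKN3, -1.18) lower and 1 not passed. Of 6 heat shock genes, 2 were higher, 2 lower and 2 not passed. Of 11 ribosomal and translation genes, 3 were higher, 6 lower and 2 not passed (median -0.24), and with median scaling 4 were higher and 3 lower (median 0.07), so no direction is read for them. With the ratio covariate the calls higher and lower were 1 and 2 for the dehydration genes, 1 and 0 for the auxin and for the homeobox genes, 0 and 2 for the heat shock genes, and 0 and 1 for the ribosomal genes. Chalcone synthase CHS2, the first enzyme of flavonoids, had 455, 648 and 909 in leaf arrays, against 2.31, 8.32 and 12 in root tip arrays (3.72 ± 0.16, SE; adjusted p = 1.7e-10).

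**Figure D4:**
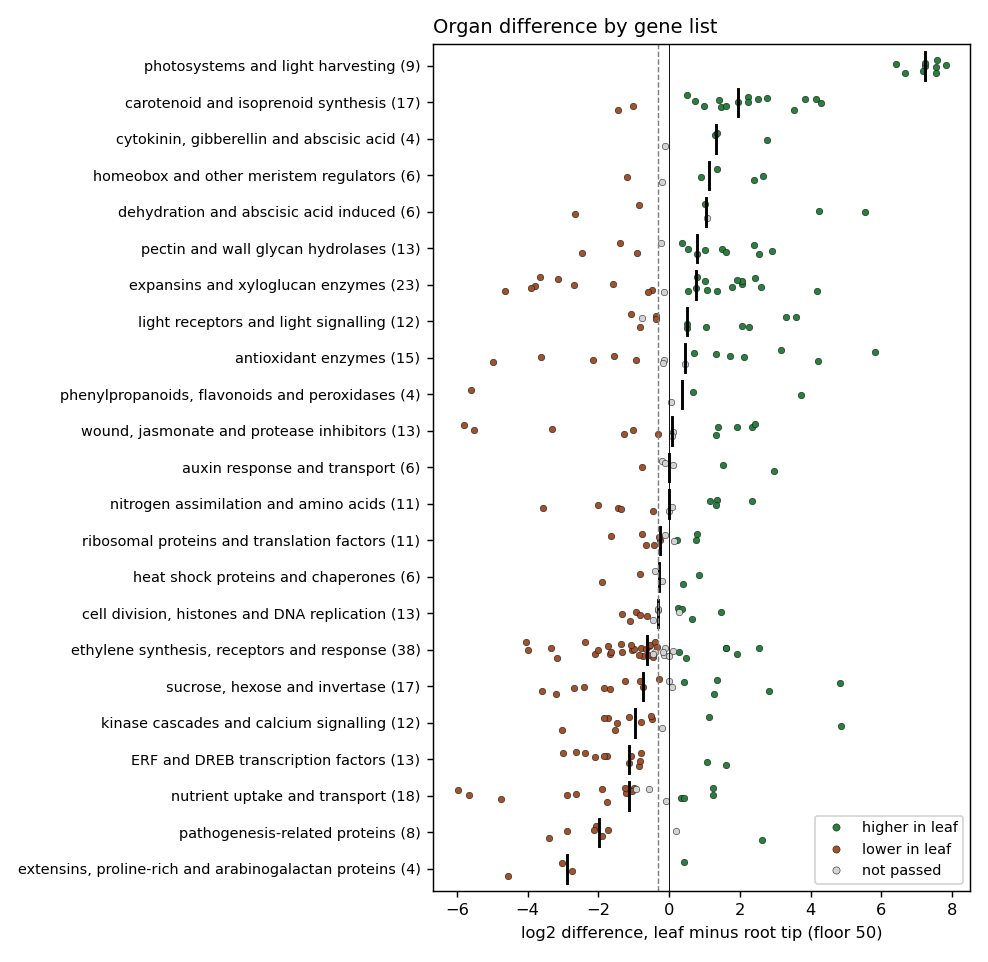
Log2 difference, leaf minus root tip (x axis, with the floor of 50), for every tested gene of the 23 lists with at least 3 tested genes, the number of genes in brackets, each gene a point coloured by its call and black bars for list medians. The dashed line is the median of all tested probe sets (-0.30); the photosystem list lies at 6.42 to 7.83, and most other lists span both sides of 0.

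The 2 control genotypes gave nearly the same organ difference. Between the vector control arrays of the organs 4479 probe sets were called (63.2%), and between the wild type arrays 4856 (68.5%). The 4133 called in both had the same direction in every case, which is 92.3% of the vector control calls and 85.1% of the wild type calls. The differences of these comparisons share no array. Their calls took the spread from a shared fit of all the control arrays, so the calls are not independent. Across probe sets, which are no replicates of each other, the differences had a Pearson correlation of 0.98. Set directly against each other, vector control and wild type differed at 16 probe sets in leaf, 6 higher (0.0847% of those tested) and 10 lower (0.141%), together 0.226% (328 at an unadjusted p under 0.05). In root tips no probe set was called with limma (140 at an unadjusted p under 0.05). None was called either with the replicate number as a block within root tips (191 unadjusted). Each of these unadjusted counts was below a 0.05 share of the tested probe sets, which a test without any difference gives on average. The lack of calls does not show that the controls are equal.

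The organ difference itself differed between vector control and wild type at 6 probe sets (0.0847% of those tested; 265 at an unadjusted p under 0.05), 4 higher (0.0564%) and 2 lower (0.0282%) in vector control. The named ones were LAPA1 and TD2, a leucine aminopeptidase and a threonine deaminase that tomato leaves make after wounding and jasmonate. LAPA1 had 1514, 1311 and 592 in vector control and 49, 71.6 and 95.2 in wild type in leaves, against 9.63, 19.9 and 17.5 in vector control and 10.9, 12.6 and 15.2 in wild type in root tips. All vector control leaves were above all wild type leaves, by 3.92 on the log2 scale (adjusted p = 3.8e-05), and every root tip array was under the floor, so that the floored organ difference differed by the same 3.92 (adjusted p = 0.0021 for that test). TD2 had 530.5, 182 and 337 in vector control and 20.5, 44.6 and 22.4 in wild type in leaves, against 21, 19.9 and 12.3 in vector control and 27.4, 25.7 and 24.2 in wild type in root tips, and was higher in vector control leaves by 2.68 (adjusted p = 0.00062, and 0.026 for the organ difference). All wild type leaves were under the floor for TD2, so its leaf over root tip difference rests on the vector control arrays. ARG2, an arginase of the same wound response, had 426, 1022 and 187 in vector control and 173, 160.4 and 115 in wild type in leaves and did not pass (1.56; adjusted p = 0.43). LAPA2, AOC, OPR3, HPL and loxD differed by -0.03, 0.65, 0.08, -0.21 and 0.41 between vector control and wild type leaves, none of them called. The fit with array weights, which stopped before it converged, called 1112 probe sets in leaf, and leaving out leaf wild type 2 gave 94.

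**Figure D5:**
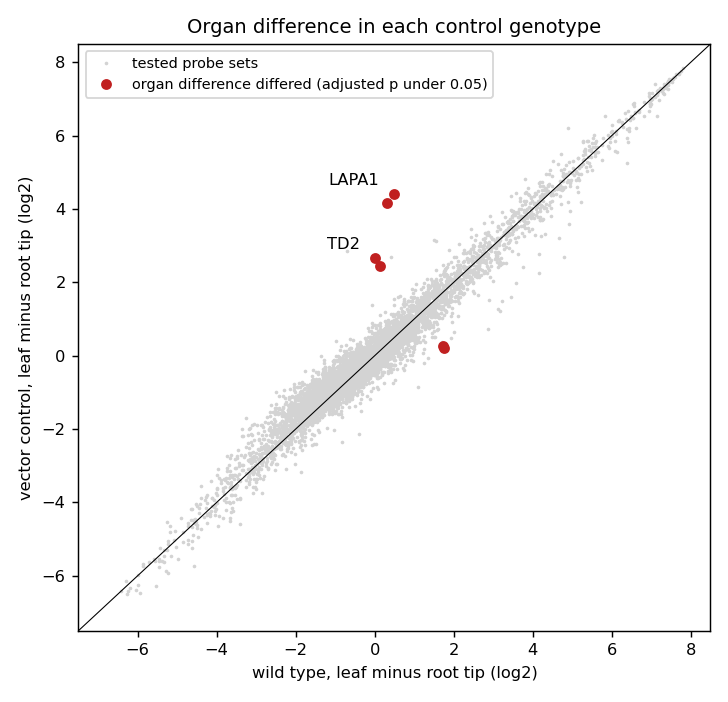
Organ difference in vector control (y axis) against that in wild type (x axis), both leaf minus root tip on the log2 scale, for 7086 tested probe sets in grey, with the line of equality. The 6 probe sets whose organ difference differed are in red: 4, with LAPA1 and TD2 among them, lie above the line and 2 below it.

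The organ difference was also read on the leaf and root tip arrays of lines N6 and N7, which share no array with the controls but carry the transgene. There 4897 probe sets were called (69.1%). All 24 genes with the highest or lowest control differences kept their direction and were called. They were picked for large differences with organs apart, so little else could come out. Of the 154 genes named by rule, 137 kept their sign. The share of all tested probe sets that did so is not given here, so that count has no background. The lines' difference minus the controls' was called at 783 probe sets (11% of those tested).

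Of 35 genes with more than 1 tested probe set, 3 had probe sets called in opposite directions: Psy1, RPS25 (-0.55 and 0.21, the second not called when any of 6 single arrays was left out) and LOC543955 (-0.87 and 1.40). The largest differences without a gene symbol were as large as the named ones. The highest of these was higher in leaf by 7.76 ± 0.13 (SE) and passed the floor on no root tip array.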

How the data were processed

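Per the submitters' processing notes, GCOS produced the values; its version and settings are not given in the sources used. The deposited table gives 1 intensity per probe set and array (10209 by 40) on a linear scale, and its values show that the authors scaled each array to a trimmed mean near 500.1 (2% trimmed at each end). That scaling sets each array's total, so a difference is relative to the other transcripts of that array.

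The 12 control arrays were used, in 4 groups of 3. Control probe sets (108 AFFX and 63 RPTR) were left out, values at or under 50 were set to 50, and the 7086 probe sets above 50 on at least 3 of the 12 arrays were tested. Groups were fitted with limma 3.58.1 in R 4.3.3 on log2 values (1 mean per group, variance trend, Benjamini-Hochberg over all tested probe sets); the organ difference weights both genotypes equally. The fit was first tested on simulated data. The number of arrays limits the precision, and no depth applies to arrays.

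Symbols came from the platform annotation, which can be old: 909 probe sets had 1 symbol, 885 of them matched to RefSeq genes (SLM_r2.1) by gene identifier, and 24 kept the annotation's name. A gene was represented by its brightest probe set by mean over the 12 arrays, whether or not that probe set was tested. Genes named by rule were the 12 highest and 12 lowest called at 2-fold with organs apart, up to 3 higher and 3 lower per list by p, up to 2 not passed per list, and those called between controls. Other list members were picked for the text after their values were seen. Members and lists were chosen with earlier results of these data known. From the lists, 40 matches by spelling alone were removed.

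Same-numbered vector control and wild type root tip arrays deviated together (correlations of 0.293 to 0.486 for the 3 pairs), so a block by number was also fitted within root tips. Different-numbered pairs of these arrays ranged from -0.567 to 0.455, which overlaps, so a pairing by number is not established in root tips. In leaf the same-numbered pairs stood at 0.080 to 0.256, above the different-numbered pairs at -0.248 to 0.069. A block within leaf alone was not fitted. Over all 18 same-numbered pairs the range was -0.216 to 0.486, so numbers were not taken to pair leaf with root tip.

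Alternatives covered scaling, floor, filter, arrays in the fit, variance trend, array weights, the ratio covariate, the replicate block and leaving out each array. Leaving out both root tip arrays numbered 3, the root tip block and the lines' arrays were added after seeing the data. A planned count of promoter motifs was not run.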

Additional observations from a re-analysis of the deposited data

Results flagged for a closer look

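The organ difference differed between vector control and wild type, by the test of the difference itself, at LAPA1 (3.92), at TD2 (2.68) and at 4 probe sets without a gene symbol (3.85, 2.32, -1.55 and -1.47), as vector control minus wild type on the log2 scale. The unnamed probe set at 3.85 had 1283, 978 and 581 in vector control leaves and 40.6, 96.3 and 40.9 in wild type leaves. The one at -1.47 had 58, 73.2 and 44.8 in vector control leaves and 164.9, 141.8 and 192.1 in wild type leaves. All 6 probe sets were under the floor on every root tip array, so each value equals the leaf difference. Leaving out 1 array gave 3 to 9 such probe sets. Requiring at least 6 arrays above the floor gave 0, but that filter cannot test these 6. Each passed the floor on fewer than 6 arrays, all of them leaf, and was removed before the fit.

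The organ difference of lines N6 and N7 differed from that of the controls at 8 genes called in the controls and apart by 2.5 or more (limma, 24 arrays, added after seeing the data). For ETR4 leaf minus root tip was 0.04 in the lines and -3.33 in the controls, a change of 3.37. For ERF3 it was 1.01 in the lines and -2.39 in the controls (3.40), and for erf1a (LOC606712) 2.46 in the lines and -1.09 in the controls (3.54). The pathogenesis-related genes PR5 (LOC543878), GluB and NP24-I had 0.64, -0.15 and -0.83 in the lines, against -2.12, -2.89 and -3.41 in the controls, changes of 2.76, 2.74 and 2.57. XTH3 and tXET-B2 had -1.89 and -1.02 in the lines, against -4.64 and -3.90 in the controls (2.75 and 2.88).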

How the results depend on the processing

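Under every alternative except the ratio covariate, the leaf minus root tip count stayed within 1.5 times 5443. When 1 array was left out it was 5190 to 5480, and 2931 to 3131 at 2-fold. The same gave 4372 to 4937 for the wild type contrast and 3962 to 4637 for the vector control contrast. With the ratio covariate the counts were 1819, 1802 at 2-fold, 1599 for wild type and 1840 for vector control; the covariate shares most of its variance with organ. With the labels' numbers as a replicate block there were 5453 probe sets for the organ difference, 4898 for wild type, 4566 for vector control, 17 for vector control minus wild type in leaf, 0 in root tips and 5 for the difference between them.

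For vector control minus wild type in leaf (16), the count was 10 with no floor, 9 with at least 6 arrays above the floor, 1112 with array weights and 12 to 94 with 1 array left out. In root tips (0) it was 1 with no filter, 1 without both arrays numbered 3 and 0 to 0 with 1 array left out. For the difference between organ differences (6), it was 10 with no filter, 0 with at least 6 arrays above the floor, 1 with all 24 arrays, 37 with array weights, 2 without both root tip arrays numbered 3 and 3 to 9 with 1 array left out. The filter of at least 6 arrays removed all 6 of these probe sets before the fit. The cause was not tested.

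Ubiquitin alone gave a 3′ to 5′ difference of -0.16. With the ratio covariate these named genes changed sign: IAA16 (0.42), IAA7 (3.94), Hsp90-1 (0.18), CIP4 (0.38), TPSI1 (-1.36), cel7 (0.75), CHS1 (-0.51), eIF-5A1 (-1.02) and eIF-5A3 (0.19); 45 others lost their call. Quantile normalization turned AGP-1 (-0.21), HSC80 (-0.13), TPx1 (-0.25), RPS25 (-0.011) and RPL3 (-0.40), and median scaling turned LHA1 (0.24). No other named gene that passed the test as reported changed sign under the alternatives run; several that had not passed did, without a call, such as gad2, SODCC.1 and RPL8 with median scaling. A floor of 100 ended the calls of DREB1, LE16, HSP21, CIP4, ST2 and CHS1. Of the named genes, HY5 gained a call under the replicate block (-0.78; adjusted p = 0.02). Signals under 50 limit what can be said of 2565 probe sets, at or under the floor on all 12 arrays.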

Other observations

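Most MADS-box and flowering genes were not measurable in either organ: 2 of 10 reached the tested range. AG1, named for the floral regulator AGAMOUS, had 63.1, 101 and 176 in leaf arrays, against 0.228, 2.01 and 6.27 in root tip arrays, under the floor on all root tip arrays, and was higher in leaf by 1.06 ± 0.15 (SE; adjusted p = 2.6e-05). TDR6 had 350.5, 438 and 566 in leaf arrays, against 137, 209 and 439.8 in root tip arrays, and was higher by 1.01, with overlapping arrays. The housekeeping gene ACT (actin) had 3602, 4031 and 4409.9 in leaf arrays, against 3129, 4511 and 6069 in root tip arrays, and did not pass, at -0.11 (adjusted p = 0.41). TUB, a tubulin, had 3001, 3441 and 4312 in leaf arrays, against 1286, 2584 and 3142 in root tip arrays, and was higher by 0.56 (1 higher and 1 not passed of 2).

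The lowest value of the whole table belonged to a probe set with no gene symbol here, at -6.42 ± 0.23 (SE; adjusted p = 1.9e-11). Another unnamed probe set followed at -6.38 ± 0.14 (SE). Both were above the floor on all 6 root tip arrays, and on 4 and 2 of the leaf arrays. At the other end, an unnamed probe set second to the one in the report was higher in leaf by 7.71 ± 0.14 (SE) and passed the floor on no root tip array.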
